A study of Mus musculus with 8 samples.

Results

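The genes described here are the mouse Wnt ligands, their Frizzled receptors, the secreted Frizzled-related proteins (SFRPs), the Dickkopfs, the co-receptors Lrp5 and Lrp6, the TCF/LEF transcription factors and the feedback gene Axin2. They were taken by symbol: every protein-coding gene named Wnt, Fzd, Sfrp or Dkk with a number, together with Frzb, Axin2, Lef1, Tcf7, Tcf7l1, Tcf7l2, Lrp5 and Lrp6. This gave 45 genes of the 49315 in the count tables, and 32 of them had at least 10 counts in at least 4 of the 8 libraries. Those 32 were 8 of 19 Wnt ligands, 9 of 10 Frizzleds, all 5 SFRPs (Frzb is the fifth of them), 3 of 4 Dickkopfs, both co-receptors and all 5 of the TCF/LEF genes with Axin2.

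Heart cells of C57/Bl6 embryos at E12.5, male and female pooled, were cultured in medium with 10 µM simvastatin (SMV, 4 libraries) or in control medium (Ctrl, 4 libraries). Simvastatin inhibits HMG-CoA reductase, the rate-limiting enzyme of the mevalonate pathway that leads to cholesterol and to the isoprenoids attached to small GTPases. The labels call the cells cardiomyocytes and name no purification. How long the drug was applied is a detail not given in the sources used here. Whether the 4 libraries of a group are separate cultures is not stated in the labels; the p-values therefore reflect spread among these samples, which may be technical.

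Wnt proteins are lipid-modified ligands that bind a Frizzled on the cell surface. With Lrp5 or Lrp6 as co-receptor they stabilise β-catenin, which enters the nucleus and acts with TCF/LEF factors on target genes such as Axin2; other Wnts signal through Frizzleds without β-catenin, in planar cell polarity and in the shaping of the outflow tract. SFRPs bind Wnts outside the cell, and the Dickkopf Dkk1 binds the Lrp co-receptors, and both can hold signalling back. For Dkk3 binding to Lrp6 is not established. In the embryonic heart, β-catenin signalling is known for expanding progenitor cells, and Wnt11 and Wnt5a are known for their part in outflow tract development.

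Totals ran from 30474586 to 34993255 counts in SMV libraries and from 31457872 to 35215640 in Ctrl libraries. The file headers place replicates 1 and 3 of each group in one set and replicates 2 and 4 in another, called set 1 and set 2 here, and do not say what a set is. The labelled cell type fitted its markers: 12 of 12 cardiomyocyte genes were measured, and their sum was 69160 to 76640 CPM (counts as a share of the scaled library total, times 1e6) in SMV libraries and 58730 to 73670 CPM in Ctrl libraries. Markers of other cells were also measured in all libraries: the epicardial sum was 375.7 to 380.2 CPM in SMV and 282.4 to 439.9 CPM in Ctrl, and the endothelial sum 283.3 to 352.3 CPM in SMV and 310.0 to 414.0 CPM in Ctrl. In these bulk samples, fewer cells of a type and less RNA per cell cannot be told apart.

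Simvastatin changed 6 of these genes, spread over 3 of the families. Of the 32 genes, 4 rose in SMV cells (Wnt2, Wnt7a, Frzb and Axin2) and 2 fell (Wnt5b and Sfrp1), by edgeR's quasi-likelihood test with Benjamini-Hochberg adjustment over all 16126 genes tested at 0.05. The 6 genes are 18.8% of the 32, near the 17.4% called among all genes tested. By direction, 12.5% of the 32 rose against 7.79% of all genes, and 6.25% fell against 9.61% of all genes. Axin2 reached the count minimum in SMV libraries alone, the group where it was higher. The count and share that rose therefore depend in part on how the 32 were chosen. With a filter of at least 1 CPM in at least 4 libraries, 3 rose. The SMV and Ctrl values did not overlap for 8 of the 32 genes (25%), against 23.1% of all genes. The median log2 fold change of the 32 genes was -0.19, and that of all genes tested was 0.01.

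**Figure D1:**
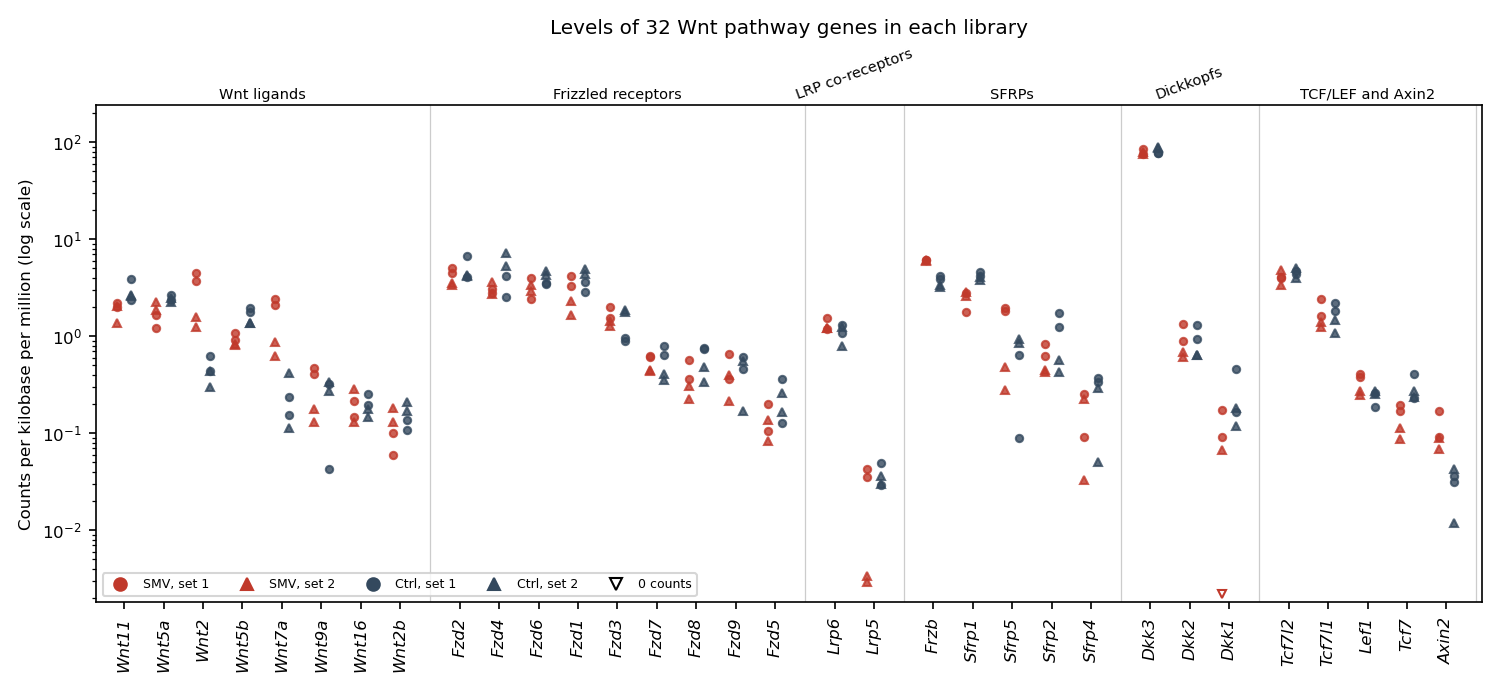
Level of each of the 32 genes in each library, as counts per kilobase of exon length, scaled like CPM on a log axis, grouped by family. SMV libraries are red and Ctrl libraries blue, with circles for set 1, triangles for set 2 and an open triangle for 0 counts; Dkk3 stands highest with a mean of 80.7 while Lrp5 stands lowest with 0.0288.

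Most of these genes were at low levels. Levels between genes are given as counts per kilobase of exon length, scaled like CPM, with the length from the files, and 15 of the 32 had a mean of at least 1 over the 8 libraries. Dkk3 had 80.7 on this scale, above 95.3% of the genes tested, and every other gene was below 5. Among the ligands the order of the means over all 8 libraries was Wnt11 (2.39), Wnt5a (2.09), Wnt2 (1.6), Wnt5b (1.27) and Wnt7a (0.869). Among the receptors Fzd2 (4.47), Fzd4 (3.93), Fzd6 (3.58) and Fzd1 (3.42) led, and Lrp6 (1.20) stood far above Lrp5 (0.0288).

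The promoters of the 4 genes that rose are printed here so that their sequence can be read beside the values below. Each is a RefSeq window of 300 bases on GRCm38.p6, 250 before the annotated start and 50 after it, read 5′ to 3′ along the gene. Capitals mark matches to GGGCGG, the GC box read by SP and KLF factors, and to CTTTGA, the core read by TCF/LEF factors, on either strand. The windows are Wnt2 at chr6:18030396-18030695 (minus strand), Wnt7a at chr6:91411304-91411603 (minus strand), Frzb at chr2:80447347-80447646 (minus strand) and Axin2 at chr11:108920099-108920398 (plus strand).
Wnt2: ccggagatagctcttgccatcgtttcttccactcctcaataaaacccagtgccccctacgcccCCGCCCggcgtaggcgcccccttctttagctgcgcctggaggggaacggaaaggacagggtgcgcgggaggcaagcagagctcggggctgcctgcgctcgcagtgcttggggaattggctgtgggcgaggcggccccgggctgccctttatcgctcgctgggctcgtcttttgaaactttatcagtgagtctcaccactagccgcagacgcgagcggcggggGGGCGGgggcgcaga
Wnt7a: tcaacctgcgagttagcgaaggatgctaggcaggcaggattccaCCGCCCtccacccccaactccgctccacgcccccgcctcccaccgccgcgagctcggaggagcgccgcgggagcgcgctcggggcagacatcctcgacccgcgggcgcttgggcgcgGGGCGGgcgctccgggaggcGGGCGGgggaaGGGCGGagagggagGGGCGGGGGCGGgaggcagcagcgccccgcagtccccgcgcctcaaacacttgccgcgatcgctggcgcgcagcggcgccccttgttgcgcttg
Frzb: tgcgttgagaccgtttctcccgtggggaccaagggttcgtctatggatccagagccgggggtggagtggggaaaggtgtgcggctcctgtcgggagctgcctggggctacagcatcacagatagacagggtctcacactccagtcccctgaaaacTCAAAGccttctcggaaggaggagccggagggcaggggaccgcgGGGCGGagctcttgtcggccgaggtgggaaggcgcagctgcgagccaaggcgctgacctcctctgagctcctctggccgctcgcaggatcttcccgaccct
Axin2: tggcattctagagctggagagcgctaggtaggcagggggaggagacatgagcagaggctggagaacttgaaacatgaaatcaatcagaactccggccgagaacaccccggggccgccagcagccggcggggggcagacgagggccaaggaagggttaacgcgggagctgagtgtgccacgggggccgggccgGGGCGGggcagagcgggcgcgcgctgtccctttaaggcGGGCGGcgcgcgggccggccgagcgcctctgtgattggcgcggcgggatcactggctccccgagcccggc

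All 4 windows were rich in G and C. Wnt7a had 76.0% GC and 42 CpG dinucleotides, Axin2 70.0% and 31, Wnt2 65.7% and 27, and Frzb 64.7% and 20, against a median of 52.7% GC over all 32851 promoter windows of the table. The GC box occurred 6 times in the Wnt7a window, 2 times each in those of Wnt2 and Axin2, and 1 time in that of Frzb. It occurred in 35.7% of all windows and in 30 of the 39 windows found for 31 of the 45 genes. Only the Frzb window, of these 4, held CTTTGA, as TCAAAG on the printed strand 95 bases before the start. That motif was in 16% of all windows and in 6 of the 39. The TEAD motif GGAATG was in 14.7% of all windows and 1 of the 39, and the SREBP motif TCACNCCAC in 1.24% and 0 of the 39; no motif overlapped another. Wnt5b, which fell, was among the genes with a match to the GC box, to CTTTGA and to GGAATG. A match is a description of letters and not a binding site, and no match says only that these letters are not in this window.

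Of the Wnt ligands, Wnt2 and Wnt7a rose more than any other of the 32 genes and Wnt5b fell. Wnt2 (ENSMUSG00000010797, chr6:17988940-18030585, minus strand, GRCm38), a ligand that acts through β-catenin and is known from heart and lung development, had 10.1, 3.57, 8.35 and 2.80 CPM in SMV replicates 1 to 4, against 0.997, 0.977, 1.40 and 0.680 CPM in Ctrl replicates 1 to 4. Each SMV library was above each Ctrl library, and SMV replicates 1 and 3, the libraries of set 1, were the highest. The means were 6.21 ± 3.58 CPM in SMV and 1.01 ± 0.297 CPM in Ctrl (SD, n = 4 each), and the log2 fold change was 2.61 ± 0.43 (SE; adjusted p = 0.00216, edgeR).

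Wnt7a (ENSMUSG00000030093, chr6:91363981-91411363, minus strand), known from limb patterning and the female reproductive tract, had 6.68, 1.99, 7.71 and 2.77 CPM in SMV replicates 1 to 4, against 0.484, 1.33, 0.744 and 0.356 CPM in Ctrl replicates 1 to 4. The groups did not overlap, and again SMV replicates 1 and 3 were highest. The means were 4.79 ± 2.83 CPM in SMV and 0.729 ± 0.433 CPM in Ctrl (SD, n = 4 each), and the log2 fold change was 2.70 ± 0.52 (SE; adjusted p = 0.00509, edgeR). Wnt2 and Wnt7a lie on the same chromosome, 6, but are not neighbours.

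Wnt5b (ENSMUSG00000030170, chr6:119432531-119544347, minus strand), which is known for signalling without β-catenin, had 2.90, 2.22, 2.42 and 2.14 CPM in SMV replicates 1 to 4, against 4.70, 3.67, 5.24 and 3.66 CPM in Ctrl replicates 1 to 4. The groups did not overlap, and the SMV libraries lay close together. The means were 2.42 ± 0.341 CPM in SMV and 4.32 ± 0.784 CPM in Ctrl (SD, n = 4 each), and Wnt5b fell by 0.84 ± 0.20 on the log2 scale (SE; edgeR adjusted p = 0.0159). Without SMV replicate 4 its adjusted p was 0.05, which did not pass.

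The ligands with the highest levels per length, Wnt11 and Wnt5a, did not pass the test. Wnt11, a ligand of planar cell polarity and outflow tract formation, had 8.22, 8.47, 9.16 and 5.66 CPM in SMV replicates 1 to 4, against 9.68, 11.0, 16.1 and 10.8 CPM in Ctrl replicates 1 to 4. Its groups did not overlap, but its log2 fold change of -0.60 ± 0.21 had an edgeR adjusted p of 0.0747; DESeq2 called it, with an adjusted p of 0.0342. Wnt5a, of the same branch of signalling, had 9.51, 17.7, 12.9 and 14.5 CPM in SMV replicates 1 to 4, against 18.4, 17.5, 20.7 and 19.2 CPM in Ctrl replicates 1 to 4. SMV replicate 2 lay within the Ctrl range and the other SMV libraries below it. The log2 fold change was -0.47 ± 0.18 (edgeR adjusted p = 0.102), and without SMV replicate 2 it passed, at 0.0372.

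The remaining ligands above the minimum, Wnt9a, Wnt16 and Wnt2b, had log2 fold changes of 0.29, 0.01 and -0.41 with edgeR adjusted p-values of 0.802, 0.993 and 0.546. Below the minimum lay Wnt1, Wnt3, Wnt3a, Wnt4, Wnt6, Wnt7b, Wnt8a, Wnt8b, Wnt9b, Wnt10a and Wnt10b. Leaving out Wnt9b, these ligands, with Dkk4 and Fzd10, had between 1 and 51 counts each over all 8 libraries, and no more than 19 in a library.

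Wnt9b, a ligand best known from kidney and palate development, is described although it missed the minimum, and was chosen after its values were seen. It had 83, 4, 71 and 8 counts in SMV replicates 1 to 4, against 0, 0, 2 and 1 counts in Ctrl replicates 1 to 4. SMV replicates 1 and 3 stood far above all other libraries, so only 2 libraries reached 10 counts. The filter of the main fit left the gene out. Without that filter its log2 fold change was 5.65 (edgeR adjusted p = 1.19e-05), and in set 1 alone it was 6.23 (edgeR adjusted p = 0.00718). Most SMV counts in both fits came from replicates 1 and 3. Summed, there were 166 counts in SMV and 3 in Ctrl, a ratio of 58.3 after scaling to library size (exact 95% interval 19.6 to 286, counting error only). In set 2 alone the sums were 12 and 1, with a ratio of 11.9 (1.76 to 510). Its neighbour Wnt3, which starts 24.3 kb away on the other strand with no protein-coding gene between them, had 0, 1, 0 and 1 counts in SMV replicates 1 to 4, against 6, 2, 5 and 1 counts in Ctrl replicates 1 to 4.

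The make-up of the ligand pool differed between the groups. As a share of the summed Wnt level per length, Wnt2, Wnt7a and Wnt9b together held 58.1, 28.2, 54.2 and 31.4% in SMV replicates 1 to 4, against 7.82, 10.7, 8.23 and 5.45% in Ctrl replicates 1 to 4. Wnt5a, Wnt5b and Wnt11 together held 49.3 ± 14.6% in SMV and 81.9 ± 2.94% in Ctrl (SD, n = 4 each). Their own summed level was 4.56 ± 0.497 in SMV and 6.93 ± 1.06 in Ctrl, so the share moved with both trios. These trios were formed after the values were seen, and the shares were not tested.

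**Figure D2:**
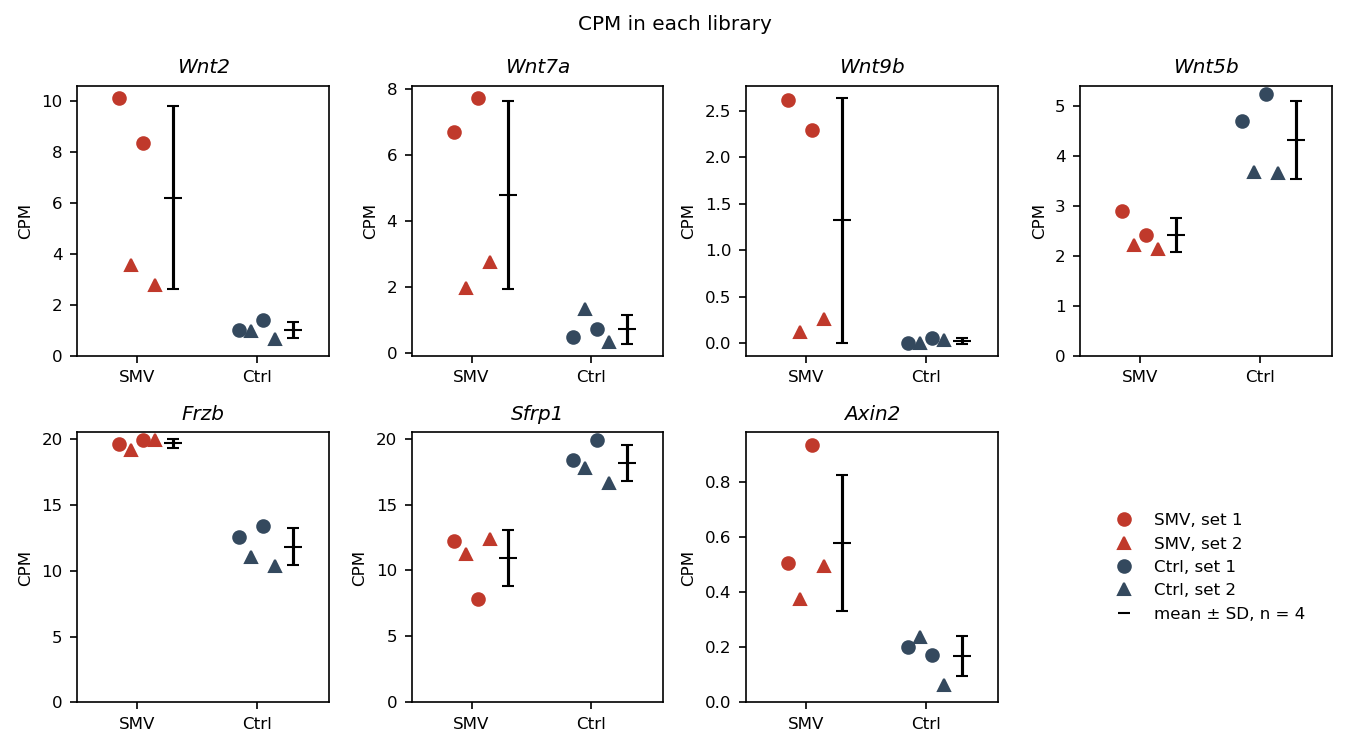
CPM of the 6 genes that passed the test and of Wnt9b, which was left out of the main fit, in each of the 4 SMV and 4 Ctrl libraries, with the mean and SD as bars, circles for set 1 and triangles for set 2. For Wnt2 and Wnt7a the set 1 libraries of SMV stand highest, while the 4 Frzb values of SMV lie between 19.2 and 19.9 CPM.

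No Frizzled receptor passed the test. Of the 9 tested, 8 had a log2 fold change below 0, the median was -0.33, and 1 had an unadjusted p under 0.05; of all genes tested, 48.8% were below 0 and 29.5% had an unadjusted p under 0.05. Fzd2, the receptor with the highest level per length, had 18.7, 12.4, 16.3 and 12.9 CPM in SMV replicates 1 to 4, against 15.1, 15.3, 24.7 and 15.7 CPM in Ctrl replicates 1 to 4. The groups overlapped, and its log2 fold change was -0.23 ± 0.20 (edgeR adjusted p = 0.506).

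Fzd4, which also binds the ligand norrin and is known from vessel growth, had 18.9, 24.2, 20.4 and 18.1 CPM in SMV replicates 1 to 4, against 17.0, 35.8, 28.0 and 48.5 CPM in Ctrl replicates 1 to 4. Ctrl replicate 1 was below every SMV library and the other Ctrl libraries were above them. The log2 fold change was -0.66 ± 0.26 (edgeR adjusted p = 0.12); it passed without Ctrl replicate 1, at 0.0111. The sum of endothelial markers, which ranged from 283.3 to 352.3 CPM in SMV and from 310.0 to 414.0 CPM in Ctrl, overlapped between the groups; its part in the Fzd4 values was not tested. The other Frizzleds were Fzd1, Fzd3, Fzd5, Fzd6, Fzd7, Fzd8 and Fzd9, with log2 fold changes from -0.80 (Fzd5) to 0.20 (Fzd3) and edgeR adjusted p-values from 0.203 to 0.923. The 4 leading receptors, Fzd1, Fzd2, Fzd4 and Fzd6, held 81.5 ± 1.39% of the summed Frizzled level in SMV and 84.3 ± 3.18% in Ctrl (SD, n = 4 each).

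Of the co-receptors, only Lrp6 was at a level that can be read closely. Lrp6 had 21.3, 16.5, 16.3 and 16.4 CPM in SMV replicates 1 to 4, against 14.9, 10.9, 17.8 and 17.2 CPM in Ctrl replicates 1 to 4. The groups overlapped, and its log2 fold change was 0.21 ± 0.17 (edgeR adjusted p = 0.473). Lrp5 had 0.346, 0.0288, 0.419 and 0.0329 CPM in SMV replicates 1 to 4, against 0.484, 0.355, 0.286 and 0.291 CPM in Ctrl replicates 1 to 4. In SMV replicates 2 and 4, those of set 2, it stood under the value of 3 counts, which was 0.0864 and 0.0988 CPM there. Its log2 fold change of -0.78 ± 0.67 had an edgeR adjusted p of 0.501.

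The SFRPs moved in both directions: Frzb rose, Sfrp1 fell, and Sfrp2, Sfrp4 and Sfrp5 did not pass. Frzb (ENSMUSG00000027004, chr2:80411970-80447625, minus strand), a secreted Wnt antagonist first known from cartilage, had 19.6, 19.2, 19.9 and 19.9 CPM in SMV replicates 1 to 4, against 12.6, 11.0, 13.4 and 10.3 CPM in Ctrl replicates 1 to 4. Every SMV library was above every Ctrl library, and the SMV values were close to each other. The means were 19.7 ± 0.345 CPM in SMV and 11.8 ± 1.40 CPM in Ctrl (SD, n = 4 each), and the log2 fold change was 0.73 ± 0.12 (SE; adjusted p = 0.00242, edgeR).

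Sfrp1 (ENSMUSG00000031548, chr8:23411502-23449632, plus strand), a secreted protein that binds Wnts, had 12.2, 11.3, 7.84 and 12.4 CPM in SMV replicates 1 to 4, against 18.4, 17.8, 19.9 and 16.6 CPM in Ctrl replicates 1 to 4. The groups did not overlap, and SMV replicate 3 was the lowest library. The means were 10.9 ± 2.12 CPM in SMV and 18.1 ± 1.35 CPM in Ctrl (SD, n = 4 each), and Sfrp1 fell by 0.73 ± 0.16 on the log2 scale (SE; edgeR adjusted p = 0.0101). Within the summed SFRP level per length, Frzb held 58.5 ± 4.97% in SMV and 37.7 ± 1.64% in Ctrl, and Sfrp1 held 24.1 ± 5.27% in SMV and 43.0 ± 2.51% in Ctrl. The higher of the pair was thus Frzb in SMV and Sfrp1 in Ctrl.

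Sfrp2, Sfrp4 and Sfrp5 had log2 fold changes of -0.78, -0.83 and 0.84, with edgeR adjusted p-values of 0.28, 0.454 and 0.477. Sfrp5, whose values are given after they were seen, had 3.69, 0.921, 3.45 and 0.527 CPM in SMV replicates 1 to 4, against 0.171, 1.78, 1.23 and 1.62 CPM in Ctrl replicates 1 to 4. The set 1 libraries of SMV were above all Ctrl libraries, and the set 2 libraries of SMV were below all Ctrl libraries but replicate 1.

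None of the Dickkopfs passed. Dkk3, a divergent member of the family for which binding to Lrp6 is not established, had 253, 268, 286 and 251 CPM in SMV replicates 1 to 4, against 259, 293, 261 and 297 CPM in Ctrl replicates 1 to 4. The groups overlapped, with 264 ± 16.1 CPM in SMV and 278 ± 20.2 CPM in Ctrl (SD, n = 4 each) and a log2 fold change of -0.07 ± 0.09 (edgeR adjusted p = 0.668). Dkk3 made up 98.8 ± 0.429% of the summed Dickkopf level in SMV and 98.6 ± 0.539% in Ctrl. Dkk2 had 3.28, 2.25, 4.93 and 2.54 CPM in SMV replicates 1 to 4, against 4.84, 2.37, 3.49 and 2.36 CPM in Ctrl replicates 1 to 4, with no separation of the groups (log2 fold change -0.01 ± 0.31, edgeR adjusted p = 0.988). Dkk1, the classical antagonist of Lrp6, averaged 0.201 ± 0.173 CPM in SMV and 0.562 ± 0.374 CPM in Ctrl, and its log2 fold change of -1.49 ± 0.72 did not pass (edgeR adjusted p = 0.197).

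Axin2 was the one gene of the nuclear and feedback group that passed, at a very low level. Axin2 (ENSMUSG00000000142, chr11:108920349-108950783, plus strand), a scaffold of the complex that degrades β-catenin and itself a widely used target gene of the pathway, had 16, 13, 29 and 15 counts in SMV replicates 1 to 4, against 7, 8, 6 and 2 counts in Ctrl replicates 1 to 4. The groups did not overlap, and SMV replicate 3 was the highest. These counts were 0.577 ± 0.246 CPM in SMV and 0.168 ± 0.0739 CPM in Ctrl (SD, n = 4 each), and the log2 fold change was 1.74 ± 0.46 (SE; adjusted p = 0.024, edgeR). Axin2 was the only one of the 32 genes that reached the count minimum in one group alone, here SMV. Its mean level per length was above that of 1.13% of the genes tested. The call was lost without SMV replicate 3 (adjusted p = 0.0848), without Ctrl replicate 3 (0.0538) and without Ctrl replicate 4 (0.0596).

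The TCF/LEF factors did not pass. Tcf7l2, the factor with the highest level, had 35.9, 42.4, 34.7 and 29.4 CPM in SMV replicates 1 to 4, against 38.1, 35.0, 41.3 and 43.7 CPM in Ctrl replicates 1 to 4 (log2 fold change -0.15 ± 0.13, edgeR adjusted p = 0.505). Tcf7l1, which acts mostly as a repressor, had 9.58, 5.44, 6.35 and 4.84 CPM in SMV replicates 1 to 4, against 7.09, 4.23, 8.67 and 5.83 CPM in Ctrl replicates 1 to 4 (0.02 ± 0.27, edgeR adjusted p = 0.973). The groups of both genes overlapped. Lef1 had a log2 fold change of 0.43 (edgeR adjusted p = 0.252) and Tcf7 one of -1.02 (edgeR adjusted p = 0.0823), and the Tcf7 groups did not overlap, with 0.371 ± 0.131 CPM in SMV and 0.752 ± 0.225 CPM in Ctrl (SD, n = 4 each). Some of these genes share exon bases with a gene on the other strand, among them Axin2, Lef1, Tcf7l1, Wnt11 and Wnt5a. Without the strand setting such reads cannot be told apart, and reads on shared bases may be missing from both genes. Each partner had no more than 41 counts over the 8 libraries.

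**Figure D3:**
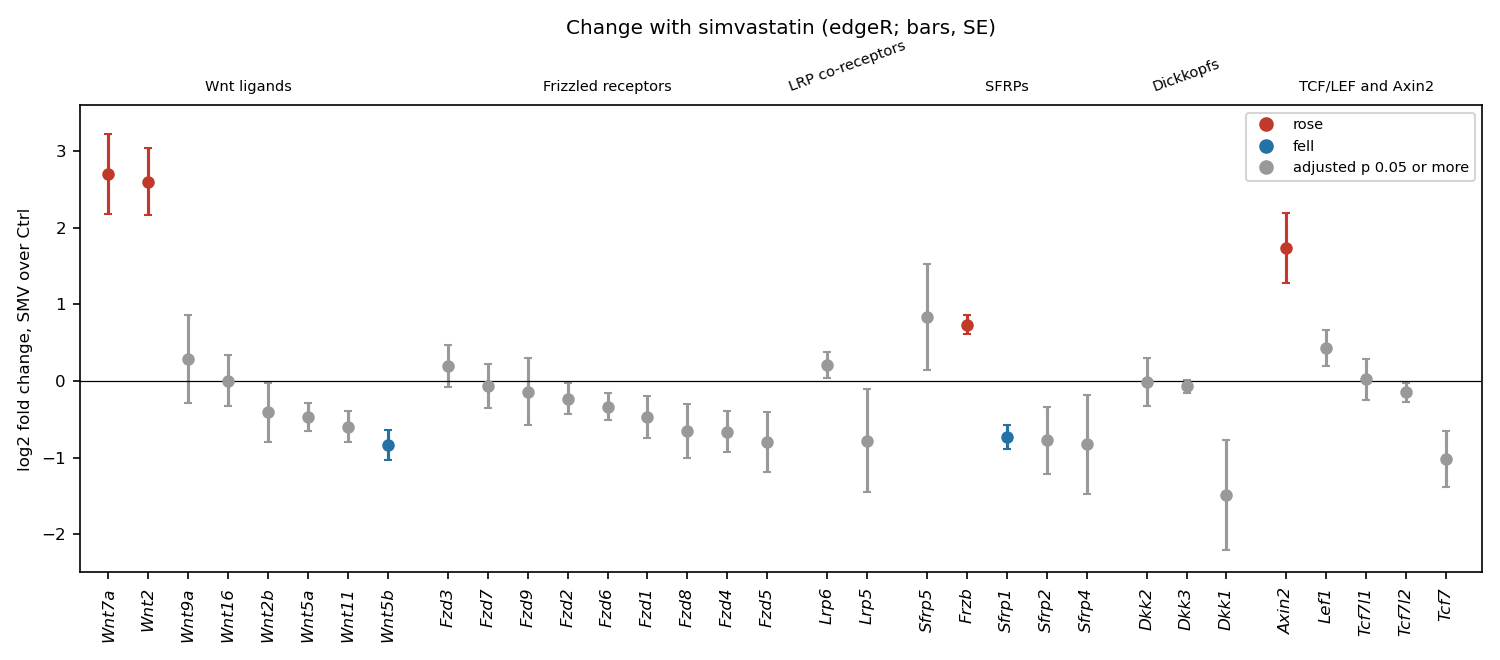
Log2 fold change of SMV over Ctrl for the 32 genes by family, with the SE from edgeR as bars and the genes that passed marked by colour. Wnt7a (2.70) and Wnt2 (2.61) lie highest, and 21 of the 32 genes lie below 0.

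Over the 26 genes that did not pass, log2 fold changes ran from -1.49 to 0.84, 19 of them were below 0, and the lowest edgeR adjusted p was 0.0747. Over the 32 genes, 10 (31.2%) had an unadjusted p under 0.05, near the 29.5% of all genes tested.

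The change was also fitted in set 1 and in set 2 alone. Passing in one set and not in the other does not show a difference between them, which is tested below. Wnt2 had a log2 fold change of 2.92 in set 1 (edgeR adjusted p = 0.00497) and 1.94 in set 2 (0.00431), each from 2 SMV and 2 Ctrl libraries, so it passed in both. Wnt7a had 3.52 in set 1 (0.00386) and 1.47 in set 2 (0.0856). Frzb had 0.59 in set 1 (0.113) and 0.87 in set 2 (0.00324), and Sfrp1 had -0.94 in set 1 (0.0854) and -0.54 in set 2 (0.0323). Wnt5b had -0.92 in set 1 (0.109) and -0.75 in set 2 (0.0627), and Axin2 had 1.91 in set 1 (0.116) and 1.47 in set 2 (0.187). All 6 kept their sign in both sets.

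Fzd1 had 13.9, 7.0, 17.6 and 9.68 CPM in SMV replicates 1 to 4, against 12.1, 18.5, 15.3 and 20.8 CPM in Ctrl replicates 1 to 4. In set 1 the groups overlapped, with a log2 fold change of 0.18, and in set 2 both SMV libraries were below both Ctrl libraries, with -1.24 (edgeR adjusted p = 0.0023). Fzd3 had 0.93 in set 1 and -0.42 in set 2, Sfrp5 2.32 and -1.21, and Wnt9a 1.26 and -0.99. Of the 30 genes with a value in each set, 9 had opposite signs. The share over all genes is not given here, so this count does not show a difference between the sets. Some of the 9 were near 0 in a set, such as Dkk2 (-0.04 and 0.01) and Lef1 (0.79 and -0.002).

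The difference between the sets was tested as an interaction of treatment and set in edgeR, chosen after the values were seen. None of the 32 genes passed after adjustment, where 0.0558% of all genes did, and the smallest adjusted p was 0.0966 (Fzd1). At an unadjusted p under 0.05 there were 7 (Fzd1, Fzd3, Lrp5, Sfrp5, Wnt2, Wnt7a and Wnt9a), or 21.9%, against 11.5% of all genes. The fold change was lower in set 2 for each of the 7. The sum of red blood cell markers was highest in the same libraries as Wnt2, Wnt7a and Wnt9b, with 40.58, 17.16, 34.48 and 18.63 CPM in SMV replicates 1 to 4, against 8.493 to 13.81 CPM in Ctrl, and 3 of its 6 tested markers rose. Of all genes tested, 7.79% rose. This order of libraries was not particular to red blood cell markers. The sums of cycling cell, smooth muscle and pericyte, and macrophage genes were lowest in SMV replicates 1 and 3. The cycling sum was 253.3 and 285.7 CPM there, against 364.9 and 347.7 CPM in SMV replicates 2 and 4. The part of any of these sums in the ligand values was not tested.

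**Figure D4:**
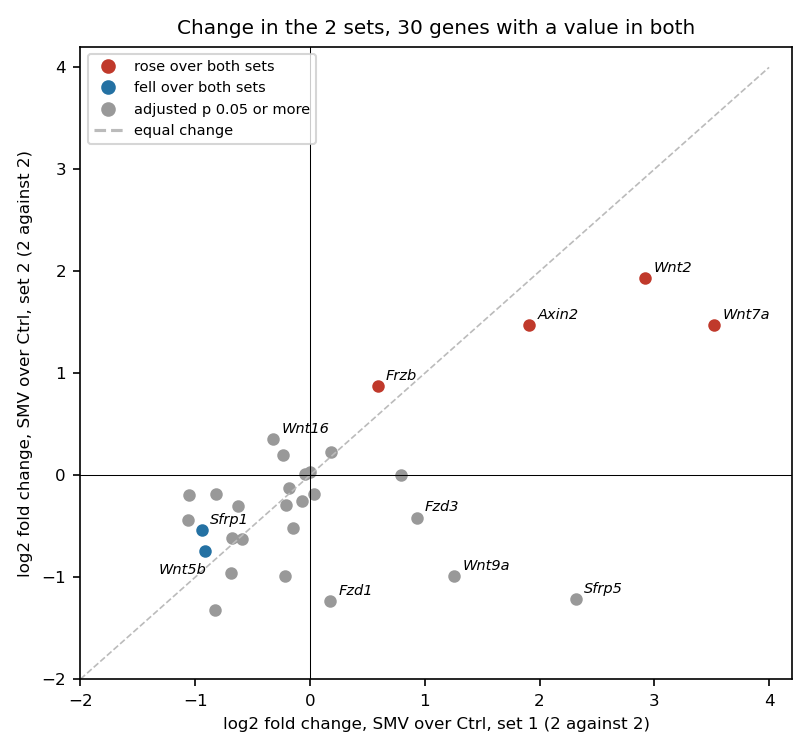
Log2 fold change of SMV over Ctrl in set 1 (horizontal) and set 2 (vertical) for the 30 genes with a value in both, each from 2 SMV and 2 Ctrl libraries; the dashed line marks equal change. Wnt7a lies farthest right (3.52) and Wnt2 highest (1.94), and 9 genes lie in quadrants of opposite sign.

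Beyond these genes, 83 of 100 other genes of the pathway, in 8 lists, were tested: 7 rose (8.43%) and 3 fell (3.61%), against 7.79% and 9.61% of all genes, and their median log2 fold change was 0.02. The count that rose was 3 without SMV replicate 1, SMV replicate 3 or Ctrl replicate 1, 4 without Ctrl replicate 2 or Ctrl replicate 4, and 0 in set 1 alone. No gene of Wnt secretion passed (0 of 6), where Trabd2b, a protease that inactivates Wnts, had 0.67 (edgeR adjusted p = 0.0839) and Wls, the carrier of Wnts to the surface, -0.21 (0.307). Among R-spondin genes and receptor turnover, 1 of 4 fell. This was Lgr6, an R-spondin receptor, with 1.76 ± 0.975 CPM in SMV and 4.89 ± 1.02 CPM in Ctrl (SD, n = 4 each; log2 fold change -1.47, edgeR adjusted p = 0.0191). None of 4 other antagonists passed, with Kremen1, a Dickkopf receptor, at 0.39 (0.143) and Tpbg, an inhibitor at the cell surface, at -0.45 (0.379). Of the 5 alternative receptors, Ror2, a receptor for Wnt5a, rose by 0.54 (0.047). That call was held in 1 of 8 fits with a library left out, the one without SMV replicate 2, and the adjusted p in the other fits ran up to 0.141.

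None of the 18 genes of Dishevelled and the destruction complex passed. The kinase gene Gsk3b had 0.52 (edgeR adjusted p = 0.109) and Apc2 had 0.46 (0.199). Of the 20 β-catenin partners 3 rose: Tle2, a co-repressor of TCF factors, by 0.88 (0.0129), Tle6, of the same family, by 0.52 (0.0222) and Ctnnbip1, which blocks β-catenin from TCF factors, by 0.97 (0.0319). Of all genes tested, 7.79% rose. With a library left out, Tle2 was called in 8 of 8 fits. Tle6 was called in 4 of 8, not without SMV replicate 1 (0.0594), SMV replicate 3 (0.083), Ctrl replicate 1 (0.0525) or Ctrl replicate 4 (0.0619). Ctnnbip1 was called in 3 of 8, not without SMV replicate 1 (0.0851), SMV replicate 3 (0.0947), Ctrl replicate 1 (0.0703), Ctrl replicate 2 (0.0814) or Ctrl replicate 4 (0.0817). Ctnnb1, the β-catenin gene, averaged 188.5 ± 81.8 CPM in SMV and 224 ± 81.4 CPM in Ctrl (log2 fold change -0.25, edgeR adjusted p = 0.687), and was chosen after its values were seen.

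Among 11 other target genes, Cd44, a hyaluronan receptor, rose by 0.80 (edgeR adjusted p = 0.0104), and Bmp4, a secreted BMP ligand, fell by 1.09 (0.00273). Bmp4 had 12.0, 15.4, 12.3 and 19.0 CPM in SMV replicates 1 to 4, against 35.0, 25.9, 38.2 and 26.0 CPM in Ctrl replicates 1 to 4, with no overlap. Axin2 and Cd44 were thus higher, and Bmp4 lower, in SMV cells. The 11 other targets, of 18 listed, had a median log2 fold change of -0.30, with 5 above 0 and 6 below. At an edgeR unadjusted p under 0.05 there were 6 of them. Of the 19 genes of planar cell polarity, 3 rose, namely Prickle3 (0.77, adjusted p = 0.00114), Prickle1 (0.44, 0.0303) and Ror2, and Prickle2 fell (-0.97, 0.0383), all by edgeR. The shares over all genes tested were 7.79% risen and 9.61% fallen. With a library left out, Prickle3 was called in 8 of 8 fits, Prickle1 in 2 of 8, those without SMV replicate 4 or Ctrl replicate 4 (adjusted p up to 0.082), and Prickle2 in 2 of 8, those without SMV replicate 2 or Ctrl replicate 3 (up to 0.0985). Prickle3 shares 246 exon bases with Plp2 on the opposite strand, which had 40799 counts over the 8 libraries, so its value is uncertain.

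**Figure D5:**
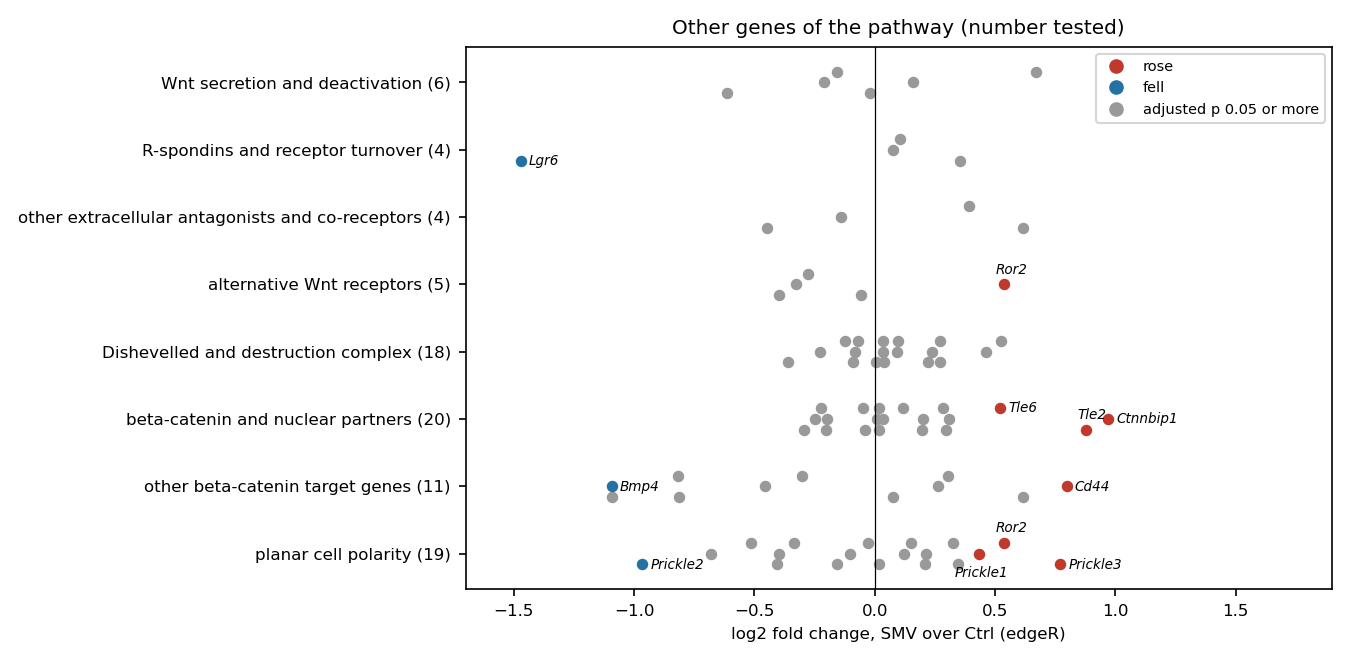
Log2 fold change of SMV over Ctrl for each of the tested genes of the 8 other pathway lists, one row per list with the number tested in brackets; coloured points passed the edgeR test. Ctnnbip1 (0.97) is the highest of those that rose and Lgr6 (-1.47) the lowest of those that fell, and 2 of the 8 rows hold points that passed on both sides.

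Some markers of other cell types, and the genes of cycling cells, moved with treatment beside these genes. The sums do not show which cells made this RNA. Of all genes tested, 7.79% rose and 9.61% fell. The lists are short, and their counts were not tested against these shares. The sum of smooth muscle and pericyte markers was 814.5 to 1102 CPM in SMV libraries and 2820 to 3796 CPM in Ctrl libraries, with 4 of 8 markers fallen and 1 risen. The fibroblast and mesenchyme sum was 1334 to 1480 CPM in SMV and 1213 to 2619 CPM in Ctrl, with 4 of 10 fallen and none risen. Of 11 epicardial markers 2 rose and 4 fell, and of 12 endothelial markers 2 rose and 2 fell. The macrophage sum was 301.2 to 396.7 CPM in SMV and 352.1 to 440.6 CPM in Ctrl, with 4 of 9 fallen. All 8 genes of cycling cells fell, with sums of 253.3 to 364.9 CPM in SMV and 1077 to 1252 CPM in Ctrl. Of the neural crest markers, Foxd3 was at 0 in all libraries and neither of the 2 tested passed, with a sum of 17.99 to 24.86 CPM in SMV and 11.90 to 22.11 CPM in Ctrl. Their part in the changes of Wnt2, Wnt7a, Wnt5b, Frzb, Sfrp1 and Axin2 was not tested.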

How the data were processed

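RNA of 4 SMV and 4 Ctrl samples was sequenced, and the values the authors deposited are raw counts per gene, one table per library. STAR 2.5.2b, Trimmomatic 0.36, Subread 1.5.2 and featureCounts are the tools listed, with GRCm38 and mm10 as builds, per the submitters' processing notes. Not given in the sources used here: strand setting and annotation release. Overlapping genes therefore cannot be separated, and reads shared by similar genes may be lost. Gene symbols were found for 99.3% of identifiers. Which genes are protein-coding came from GENCODE M21, whose positions were identical for 91% of genes. Coordinates are those of the files (GRCm38, 1-based).

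Genes were kept by filterByExpr and tested with edgeR 4.0.16 (R 4.3.3): TMM scaling, quasi-likelihood F test, two-sided, treatment as the only term, Benjamini-Hochberg adjustment over 16126 genes, threshold 0.05. CPM are counts over TMM-scaled totals; a count of 3 was 0.0854 to 0.0988 CPM. The common biological coefficient of variation was 0.222. No library was a copy of another, since counts of each pair differed beyond sampling noise. The test was also tried on simulated data, with settings and outcome not given here, so no error rate is drawn from that.

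The genes, lists and trios were chosen with earlier results of these data known. Values per library are given for each gene that passed and for the 2 of each family with the highest level per length. From each other list up to 4 genes that passed are named, or the 2 with the smallest p. Alternatives were DESeq2 1.42.0, limma-voom (limma 3.58.1), other scalings and filters, the sets, a replicate block and leaving out each library. Motifs were searched as exact letters on both strands of the RefSeq windows.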

Additional observations from a re-analysis of the deposited data

Results flagged for a closer look

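In 64 groups of 4 libraries (32 genes in SMV and in Ctrl), 2 libraries stood apart by a gap test at the 95% level, where chance flags about 1 in 20 groups. Lrp6 had 21.3 CPM in SMV replicate 1, against 16.3 to 16.5 CPM in the other SMV libraries, a gap of 0.946 of the range of that group. Fzd2 had 24.7 CPM in Ctrl replicate 3, against 15.1 to 15.7 CPM in the other Ctrl libraries, a gap of 0.94 of the range. Neither gene passed the test of SMV against Ctrl with all libraries, and neither was called when the library was left out.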

How the results depend on the processing

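Of the 32 genes, none changed direction together with a call under any alternative, and Wnt2 passed in all 19. Frzb, Wnt7a and Sfrp1 passed in 18 of 19, Wnt5b in 16 of 19 and Axin2 in 12 of 18. Over all genes 2805 were called, against 1627 in set 1 alone, and 2002 to 2462 with a library left out. The 4 genes that rose were 2 in set 1 alone and 2 in set 2 alone, and 3 to 4 with a library left out. The 2 that fell were 0 in set 1 alone and 4 in set 2 alone (Sfrp1, Fzd1, Fzd4 and Fzd6), and 1 to 3 with a library left out. The 7 other pathway genes that rose were 4 with the replicate block and 0 in set 1 alone, and 3 to 7 with a library left out (3 without SMV replicate 1, SMV replicate 3 or Ctrl replicate 1, and 4 without Ctrl replicate 2 or 4). The 3 that fell were 7 by DESeq2, 8 with no filter on low counts, 7 with set as a term and 12 in set 2 alone, and 3 to 4 with a library left out, though Prickle2 was among them in 2 of these 8 fits and other genes entered. Each set has 2 libraries a group; the cause of the other changes was not tested. With all 8 libraries required to reach 10 counts, 24 genes were left of the 32.

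Same-numbered SMV and Ctrl libraries did not deviate together strongly (r = -0.143, 0.045, 0.133 and -0.162). The labels do not say whether the numbers pair them. With 4 libraries a group these values cannot decide it. With the replicate block 2131 genes were called, and of the 6 genes called Axin2 was lost (adjusted p = 0.0594, edgeR). Leaving genes unfiltered moved the median log2 fold change of all genes to -0.11. At these depths genes under about 10 counts in a library, such as Lrp5 in SMV replicates 2 and 4, carry little information.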
